A study of Mus musculus with 6 samples.

Results

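Binding of p53 was examined at 8 genes that carry out or assist cell death, Apaf1, Casp9, Casp8, Casp2, Perp, Ei24, Aen and Zmat3, out of 22380 protein-coding genes. The data were lists of p53 ChIP-seq peaks, which are regions where DNA fragments recovered with an antibody against p53 pile up. A peak was counted at a gene when it overlapped the GENCODE vM1 gene body, extended by 10 kb on both sides, by at least 1 bp on the mm9 (NCBIM37) assembly. The mice were of the C57/Bl6 strain. Splenic B cells had been selected with magnetic beads against the surface marker B220, and the cells depleted of B cells in this way were the non-B cells. Both came from Trp53+/+ animals of 8 weeks that were mock-treated or had received 7 Gy of whole-body irradiation (IR) 4 h earlier. The fifth list was from spleen cells of irradiated Trp53-/- mice, not separated into B and non-B cells and with no age given in the labels. These mice lack p53, so that list holds what the polyclonal antibody (NCL-p53-CM5p) recovers without its target. Each list came from 1 library, and the methods state that animals were pooled for ChIP, so no difference between lists could be set against a spread between replicates and no test was made. The purity of the separated cells could not be checked from peak positions.

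The lists held 1413 peaks in mock and 24507 in irradiated B cells, 712 in mock and 21400 in irradiated non-B cells, and 83 in Trp53-/- spleen. Each peak carries a deposited value, taken from its distribution to be −log10 of a p-value, which is not normalised between libraries. Peaks were therefore described by that value and by their rank within their own list, where 1 is the highest. A percentile is the share of peaks in a list that have a lower value.

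The mitochondrial route to cell death runs through the apoptosome, in which Apaf1 binds cytochrome c and activates the initiator caspase Casp9. Casp8 is the initiator caspase of death receptors, and Casp2 is an initiator caspase activated on a platform built by Pidd1. Perp is a membrane protein of cell junctions, Ei24 a protein of the endoplasmic reticulum, Aen a nuclease and Zmat3 a zinc finger protein that binds RNA. p53 is stabilised after DNA damage and binds DNA as a tetramer at an element made of 2 decamers.

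The elements that lay inside peaks at these genes are shown first, since under the rule used here, with no spacer and up to 3 mismatches, they lay in peaks of Zmat3, Aen and Ei24 and in none of the apoptosome and caspase genes. With 2 mismatches allowed the count of genes fell from 3 to 2 in either IR list, and with a spacer of 0 to 15 bases it rose to 5 in irradiated B cells and 6 in irradiated non-B cells. Matches with such a spacer were present in 46.0% and 45.2% of all peaks of these lists and in 35.6% of windows moved by 10 kb for both. These are shares of single peaks or windows. The share of all genes with such a match was not computed, so the gene counts cannot be judged against them. Each element is written along the strand given, with the fixed C and G of both decamers in capitals, and positions are mm9. Mismatches are counted against the p53 response element.
Zmat3 intron, chr3:32263253-32263272, minus strand, 0 mismatches: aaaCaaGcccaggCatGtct
Zmat3 upstream, chr3:32269073-32269092, minus strand, 1 mismatch: gagCaaGtctgggCttGtta
Aen UTR, chr7:86040823-86040842, plus strand, 3 mismatches: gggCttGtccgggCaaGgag
Aen intron, chr7:86042288-86042307, plus strand, 3 mismatches: ggcCaaGcatataCaaGctt
Isg20 intron, within the Aen window, chr7:86063652-86063671, plus strand, 2 mismatches: gagCtgGcccaggCttGtca
Ei24 intron, chr9:36604701-36604720, minus strand, 3 mismatches: tggCagGccggagCtaGttc

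For comparison, an element of Apaf1 without a mismatch and the elements nearest to the start of Perp lay in no peak of any list.
Apaf1 intron, chr10:90481411-90481430, minus strand, 0 mismatches: agaCaaGcttgaaCttGctc
Perp upstream, chr10:18562840-18562859, plus strand, 2 mismatches: attCtaGcccaggCttGccc
Perp intron, chr10:18567823-18567842, plus strand, 2 mismatches: gggCaaGctctggCatGtca

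Without irradiation 2 of the 8 genes had a peak, Aen and Zmat3, in B as well as in non-B cells. After irradiation 7 of them had a peak in B cells, while 6 did in the non-B compartment. Perp had none in any list, and Casp2 had one in irradiated B cells alone. None of the 8 had a peak in Trp53-/- spleen, and no peak at them overlapped one of that list. By the same rule, the share of all protein-coding genes with a peak was 4.45% (mock) and 53.4% (IR) for B cells, 2.27% (mock) and 51.8% (IR) for non-B cells, and 0.125% for Trp53-/- spleen. A peak after irradiation was therefore common among all genes, whereas a mock peak was rare.

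When both conditions were read together, an IR peak without a mock peak was found at 5 of the 8 genes in B cells, against 49.0% of all genes, and at 4 in non-B cells, against 49.6%. An IR peak together with a mock peak was found at 2 genes in each compartment, against 4.37% of all genes (B cells) and 2.23% (non-B cells). Aen and Zmat3 had a peak in all 4 wild-type lists, which 1.73% of all genes had.

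Each gene with a peak also had one with its midpoint between 5 kb upstream and 2 kb downstream of an annotated start. For B cells this gave 2 genes in mock, against 1.95% of all genes, and 7 after irradiation, against 39.2%. For non-B cells it gave 2 in mock, against 0.947%, and 6 after irradiation, against 38.1%. In Trp53-/- spleen it gave 0, against 0.0670%.

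**Figure D1:**
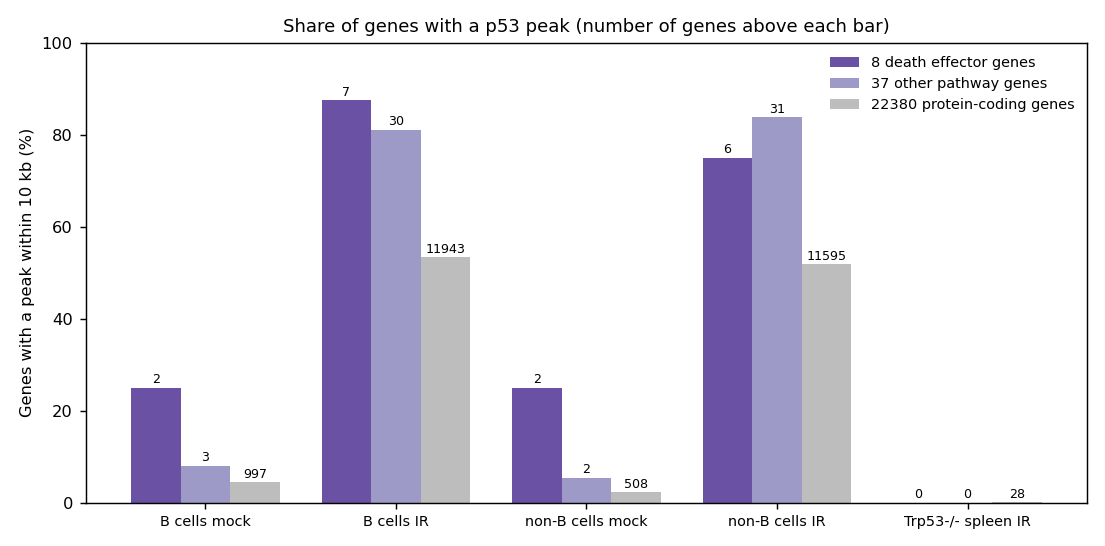
Percentage of genes with at least 1 p53 peak within 10 kb of the gene body (vertical axis) in each of the 5 lists (horizontal axis), for the 8 death effector genes, 37 other genes of the pathway and all protein-coding genes. Numbers above the bars are gene counts. Of the 8 genes, 2 had a peak in each mock list, 7 in irradiated B cells, 6 in irradiated non-B cells and 0 in Trp53-/- spleen.

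In all, 15 peaks lay at the 8 genes in irradiated B cells and 17 in irradiated non-B cells, against 2 and 3 in mock. The nearest start of a protein-coding gene was that of the member itself for 10 of the 15 and 11 of the 17. The other peaks lay nearer to the starts of Isg20, Dnajc16, Ikbip or 4930429B21Rik, which share the windows. The median percentile of the highest peak per gene was 82.6 over the 7 genes in irradiated B cells, beside 66.5 over all protein-coding genes with a peak. In irradiated non-B cells it was 90.5 over 6 genes, beside 67.5. The B cell median is the percentile of Casp9, whose highest peak lay nearer to the start of Dnajc16, and that peak also enters the non-B median. The peak at the start of Casp9 itself was at percentiles 18.1 and 1.72 in B and non-B cells. Without the 10 kb extension the medians were 81.7 over 6 genes and 92.8 over 5. The genes spread widely around these medians, from Casp2 at percentile 33.4 to Aen at 99.7 in irradiated B cells.

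**Figure D2:**
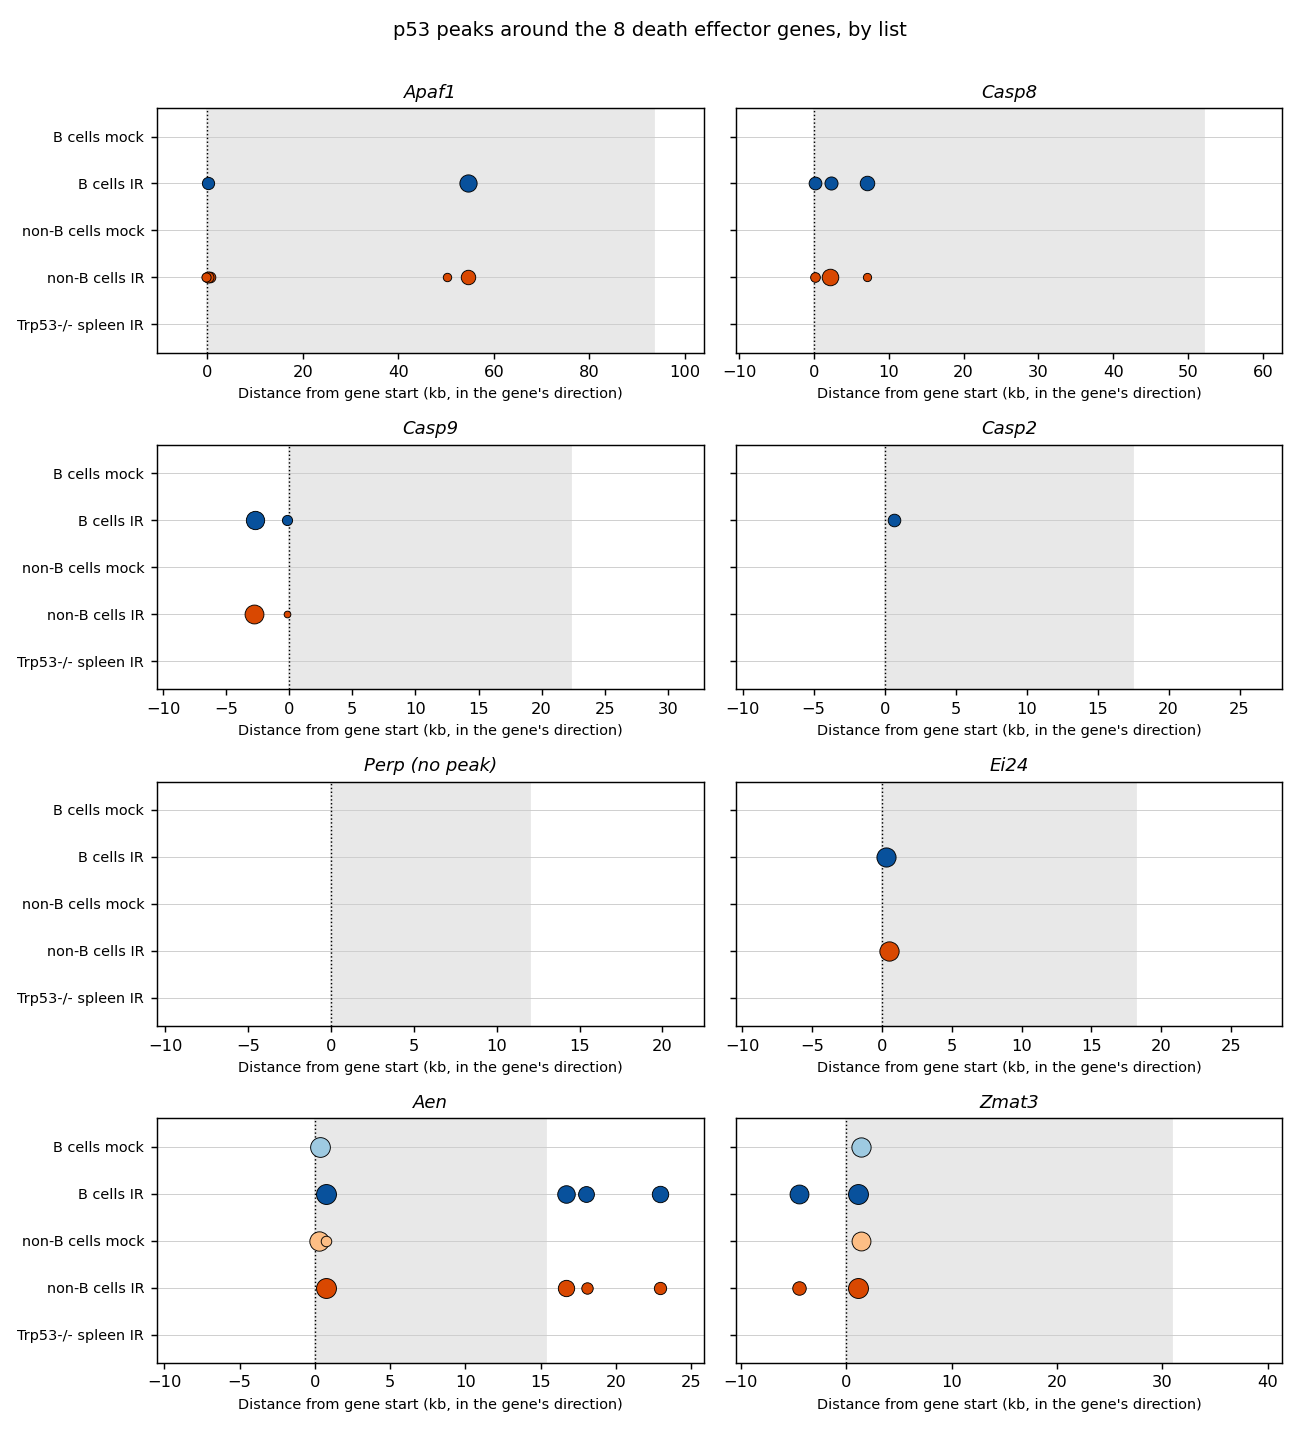
Midpoint of each p53 peak relative to the start of its gene (horizontal axis, kb, in the direction of transcription) in the 5 lists (rows). The grey band is the gene body, each panel extends about 10 kb beyond it on both sides, and the area of a point grows with the percentile of the peak in its list. Every gene with a peak has one close to its start, Apaf1 and Casp8 have further peaks inside the gene, Aen has peaks downstream, and Perp has none.

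Apaf1 (ENSMUSG00000019979.6), the scaffold of the apoptosome, lies on chr10:90452056-90545515, minus strand, and had peaks at its start and deep inside the gene in the IR lists and none in mock. The intronic peak was chr10:90490694-90491049 in irradiated B cells, 54644 bp from the start, with a value of 31.4 and rank 6749. The non-B cell counterpart was chr10:90490769-90491027, with a value of 18.4 and rank 10999. It was the highest Apaf1 peak in both lists. At the start, irradiated B cells had 1 peak, chr10:90545046-90545424, with a value of 14.1. Irradiated non-B cells had 3 there, with values of 11.7, 12.1 and 10.2, of which the last lay 46 bp from the start of Ikbip, a neighbour transcribed from the other strand. A further intronic peak with a value of 9.27 was listed in irradiated non-B cells and overlapped none in B cells. None of the Apaf1 peaks held an element.

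Casp9 (ENSMUSG00000028914.7), the caspase activated on the apoptosome, lies on chr4:141349527-141371891, plus strand, and had 2 peaks in each IR list and none in mock. The higher one was chr4:141346505-141347034 in irradiated B cells, with a value of 43.5 and rank 4247. In irradiated non-B cells it was chr4:141346514-141346993, with a value of 52.9 and rank 2508. This peak lay in a UTR of Dnajc16, the neighbour on the other strand, whose start was 37 bp from its midpoint in irradiated B cells and 53 bp in irradiated non-B cells. The peak at the start of Casp9 itself had a value of 11.1 and rank 19580 in irradiated B cells. The non-B cell counterpart had a value of 6.91 and rank 20962 of 21400, close to the lowest of the list. The place of Casp9 among the 8 genes thus rests on a peak that is nearer to the start of Dnajc16.

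Casp8 (ENSMUSG00000026029.8), the initiator caspase of death receptors, lies on chr1:58852218-58904347, plus strand, and had peaks at the same 3 sites in both IR lists and none in mock. At the start the value was 14.8 in irradiated B cells and 10.4 in irradiated non-B cells. The second site, in an intron, was chr1:58854324-58854603 in irradiated B cells, with a value of 15.2, and chr1:58854228-58854594 in irradiated non-B cells, with a value of 26.3. The third site, at another annotated start of Casp8 7078 bp into the gene, had values of 18.7 and 9.09. The highest of the 3 was the third for B cells but the second for the non-B cell list, and none of them held an element.

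Casp2 (ENSMUSG00000029863.7), the caspase of the Pidd1 platform, lies on chr6:42214984-42232507, plus strand. It had 1 peak, chr6:42215548-42215781 in irradiated B cells, over a noncoding exon, with a value of 14.4 and rank 16300 of 24507. No peak was listed in irradiated non-B cells, in a list whose values reached down to 5.27. A peak in exactly 1 of the 2 IR lists was found at 6.62% of all genes, and without replicates it does not show that binding differed. Just outside the window, in a coding exon of Clcn1, both IR lists had a peak, with values of 18.4 and 12.1.

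Perp (ENSMUSG00000019851.7), the junction protein, lies on chr10:18564877-18576879, plus strand, and had no peak in any list. The nearest one was 27.2 kb away in irradiated B cells, with a value of 9.23, and 108 kb away in irradiated non-B cells, with a value of 15.3. The 3 elements in its window, among them both shown above, lay outside peaks. The depth of the libraries is not known, so binding too weak to be called at Perp was not detectable here.

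Ei24 (ENSMUSG00000062762.7), the protein of the endoplasmic reticulum, lies on chr9:36586740-36604938, minus strand, and had 1 peak in each IR list, over its start, and none in mock. In irradiated B cells it was chr9:36604053-36605286, with a value of 67.3 and rank 2066. In irradiated non-B cells it was chr9:36603794-36605130, with a value of 72.0 and rank 1512. At 1234 and 1337 bp these peaks were wide, since the median width was 340 and 315 bp in these lists. The Ei24 element lay inside both. Just outside the window, 10.9 kb beyond the end of Ei24, both IR lists had another peak, with values of 54.2 and 47.3, which in irradiated B cells lay on an exon of the noncoding gene Gm16881.

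Aen (ENSMUSG00000030609.12), the apoptosis enhancing nuclease, lies on chr7:86040740-86056095, plus strand, and had a peak over its start in all 4 wild-type lists. In mock B cells it was chr7:86040563-86041543, with a value of 59.0 and rank 34 of 1413. In mock non-B cells it was chr7:86040577-86041395, with a value of 46.1 and rank 48 of 712. Both mock peaks thus stood high in their lists, at percentiles 97.6 and 93.3. In irradiated B cells it was chr7:86040368-86042565, with a value of 266 and rank 74 of 24507. The non-B cell counterpart was chr7:86040396-86042551, with a value of 447 and rank 73 of 21400. By its highest peak Aen ranked 67 of 11943 protein-coding genes with a peak in irradiated B cells and 68 of 11595 in irradiated non-B cells.

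The Aen peak was 981 and 819 bp wide in mock B and non-B cells and 2198 and 2156 bp wide after irradiation. Peaks were wider throughout the IR lists, with median widths of 340 and 315 bp, against 95 and 93 bp in mock. The widening at Aen is therefore not particular to this gene. The UTR element, 93 bp from the gene start, lay inside the peak in all 4 lists. The intronic element lay inside the wider IR peaks and in no mock peak. A second mock peak, chr7:86041473-86041534 with a value of 7.90, was listed in non-B cells and fell within the IR peak.

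Beyond the end of Aen, 3 further peaks were listed in both IR lists and none in mock. They lay closer to the start of Isg20, a gene of an interferon-stimulated exonuclease. From Aen outwards their values were 33.9, 23.5 and 26.5 in irradiated B cells and 25.3, 12.7 and 14.2 in irradiated non-B cells, far below those at the start of Aen.

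Zmat3 (ENSMUSG00000027663.6), the RNA-binding zinc finger protein, lies on chr3:32233718-32264600, minus strand. A peak near its start, with the midpoint in an intron, was present in all 4 wild-type lists. In mock B cells it was chr3:32262965-32263481, with a value of 26.6 and rank 108 of 1413. In mock non-B cells it was chr3:32262989-32263479, with a value of 29.8 and rank 83 of 712. These mock values were below those of Aen. In irradiated B cells it was chr3:32262071-32264955, with a value of 225 and rank 178 of 24507. In irradiated non-B cells it was chr3:32261954-32264988, with a value of 474 and rank 54 of 21400, the highest of the 8 genes in that list. At 2885 and 3035 bp the IR peaks ranked 12 and 6 by width in their lists, and both covered the gene start.

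The intronic element of Zmat3, 1337 bp from the gene start, had no mismatch and lay inside the peak in each wild-type list. Its surroundings are shown with the element in capitals, since it is the one perfect element at the 8 genes that lay in a peak.
Zmat3 intron, chr3:32263193-32263332, minus strand: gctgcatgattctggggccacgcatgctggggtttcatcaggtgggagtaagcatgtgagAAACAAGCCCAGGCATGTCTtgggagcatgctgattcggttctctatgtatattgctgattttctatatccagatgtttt

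A second Zmat3 peak, upstream of the gene, was listed after irradiation and not in mock. In irradiated B cells it was chr3:32268864-32269311, with a value of 55.7 and rank 2833. The non-B cell counterpart was chr3:32268955-32269208, with a value of 16.3 and rank 12532. The start of 4930429B21Rik, a coding gene on the other strand, was nearer to it than that of Zmat3, at 4390 bp in irradiated B cells. The upstream element, in capitals, lay 4 bp or less from the midpoint of both peaks.
Zmat3 upstream, chr3:32269013-32269152, minus strand: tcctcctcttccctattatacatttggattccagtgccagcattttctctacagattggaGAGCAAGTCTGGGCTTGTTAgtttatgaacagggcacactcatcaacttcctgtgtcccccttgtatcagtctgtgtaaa

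**Figure D3:**
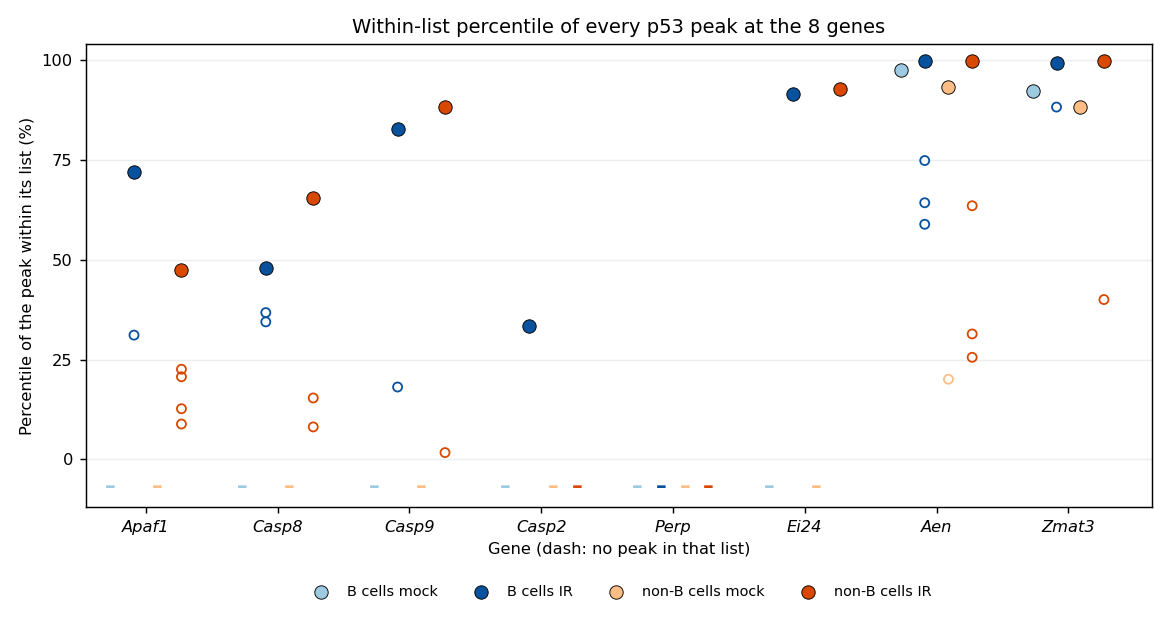
Percentile of every peak within its own list (vertical axis, %) for the 8 genes (horizontal axis), coloured by wild-type list, with the highest peak of a gene filled and its others open. A dash marks a list without a peak. The highest IR peaks of Aen and Zmat3 lie between 99.3 and 99.7 in both compartments, those of Ei24 at 91.5 and 92.8, and those of the other genes between 33.4 and 88.3.

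B and non-B cells were then compared at the same sites after irradiation. Of the IR peaks, 14 of 15 (B cells) and 15 of 17 (non-B cells) overlapped a peak of the other compartment. Such a shared peak was found at 6 of the 8 genes, against 48.7% of all genes. Pairing each B cell peak with its overlapping non-B cell peak gave 14 pairs. Over the whole lists it gave 17868 pairs, from 24507 B cell and 21400 non-B cell peaks, so shared peaks were common throughout. Near the top of a list percentiles can differ by little, so the main peaks are compared by rank. The peak at the Aen start ranked 74 in irradiated B cells and 73 in the non-B list. The peak near the Zmat3 start ranked 178 and 54, and that of Ei24 2066 and 1512. Zmat3 thus stood higher by rank in the non-B list, and without replicates this was not tested. The values, not normalised between libraries, were not compared.

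Lower in the lists, places were compared by percentile. Over all 17868 pairs of the lists the median absolute difference was 10.8 points and the 90th percentile of it 35.0 points. The upstream Zmat3 site was at percentile 88.2 in B cells, 48.2 points above its place in non-B cells, a difference that 3.09% of all pairs reached. The third Casp8 site was 39.8 points higher in B cells, which 6.63% of pairs reached. The second Casp8 site differed the other way, by −28.7 points (B minus non-B), which 15.8% reached. These sites were picked out after their values were seen, and no test was made. In 10 of the 14 pairs the percentile was higher in B cells, beside 59.8% of all pairs, and the B cell list is the longer one.

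**Figure D4:**
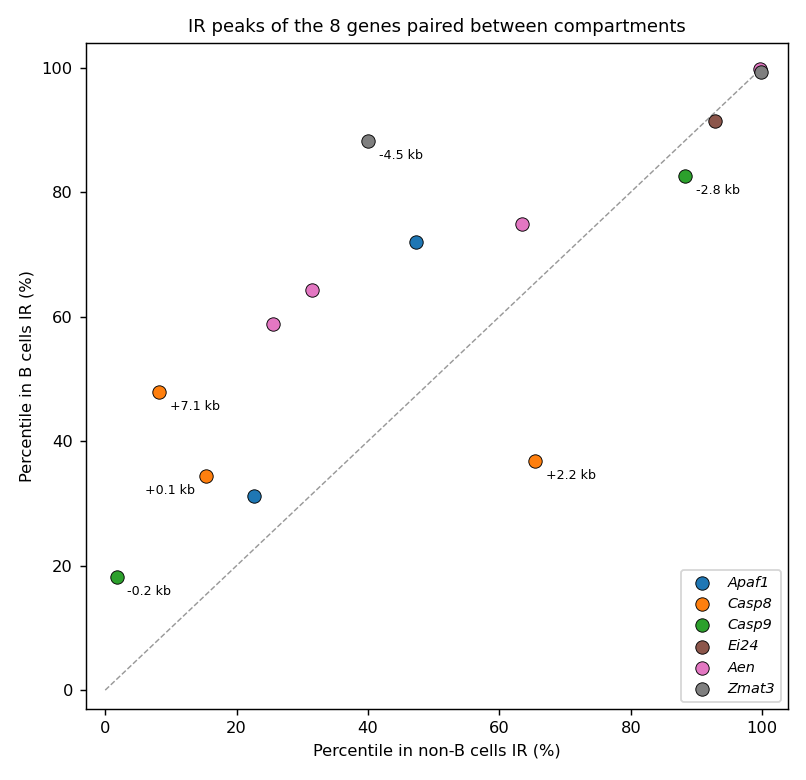
Percentile in irradiated B cells (vertical axis, %) against percentile in irradiated non-B cells (horizontal axis, %) for the 14 paired peaks at the 8 genes, coloured by gene. Each point is a pair, the dashed line marks equal percentiles, and labels give the distance from the gene start for sites of Casp8, Casp9 and Zmat3. The main Aen and Zmat3 pairs lie on the line at the top right, and the upstream Zmat3 pair, 48.2 points above it, lies farthest from it.

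The genes also differed in whether their peaks held the p53 response element. The scan took unsplit elements in which the C and G at positions 4 and 7 of either decamer were present and up to 3 other bases differed. The element is its own reverse complement, so 1 scan covers both strands. Within 300 bp of a peak midpoint it was found at Zmat3, Ei24 and, through the Isg20 intron, Aen, which is 3 of the 8 genes in either IR list. The same held for 11.6% of all genes in irradiated B cells and 10.3% in irradiated non-B cells. In mock, 2 genes had it, Aen and Zmat3, against 0.979% of all genes (mock B cells) and 0.760% (mock non-B cells).

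Counted by peaks, 4 of 15 in irradiated B cells and 4 of 17 in irradiated non-B cells had an element within 300 bp of the midpoint. Of all peaks in these lists 15.3% and 15.4% had one, and of windows moved by 10 kb 3.21% and 3.31%. Both elements at the start of Aen lay over 600 bp from the midpoint of its wide IR peaks, and counting them gave 5 peaks with an element in each list. No peak of Apaf1, Casp9, Casp8 or Casp2 held one. This says only that no match without a spacer lay in these peaks or within 300 bp of their midpoints.

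Most matches lay outside peaks. The 8 gene windows held 30 elements, of which 6 lay inside an IR peak. Of the 2 elements without a mismatch 1 lay in a peak (Zmat3) and the other did not (Apaf1). The single element with 1 mismatch lay in a peak, as did 1 of 6 with 2 mismatches and 3 of 21 with 3. Over the whole genome, 56.4% of 645 elements without a mismatch lay inside an IR peak of either compartment, as did 30.4% of those with 1 mismatch, 8.15% with 2 and 1.87% with 3.

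The other genes of the pathway were a list of 37, with further caspases, cytochrome c, inhibitors of apoptosis, adaptors and nucleases. After irradiation 30 (B cells) and 31 (non-B cells) of them had a peak, beside the 53.4% and 51.8% of all genes given above. In mock 3 had one in B cells, Birc3, Fadd and Trp53inp1, and 2 in non-B cells, Fadd and Trp53inp1. The mock shares over all genes were 4.45% (B cells) and 2.27% (non-B cells). No gene of the list had a peak in Trp53-/- spleen. The median percentile of their highest IR peaks was 68.0 (B cells) and 69.7 (non-B cells), near the 66.5 and 67.5 of all genes with a peak.

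Some genes of the list had no peak in any of the lists, among them Casp6, Casp12, Casp14, Xiap, an inhibitor that binds caspases, and Mlkl, the effector of necroptosis. Cycs, the gene of the cytochrome c that Apaf1 binds, had 1 peak in each IR list, with values of 19.5 and 29.0.

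Trp53inp1, whose protein acts with p53 in the stress response, had the highest peak of the list, with a value of 176 and rank 366 in irradiated B cells and a value of 363 and rank 124 in irradiated non-B cells. Birc5, the survivin gene, followed with values of 125 and 226, and Birc3, an inhibitor of apoptosis, with 115 and 107. Htra2, a mitochondrial protease, had values of 88.2 and 72.5. Pidd1, which builds the platform of Casp2 and is annotated as Lrdd, was among the first 5 in irradiated B cells, with a value of 95.2 and rank 1137, and had an element at its peak. Shisa5 was among the first 5 in irradiated non-B cells, with a value of 63.0 and rank 1855. The main peaks of Aen and Zmat3 ranked above those of all 37 genes in both IR lists.

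The genes most like Aen, the member with the highest peak in irradiated B cells, were found by the Euclidean distance between percentiles of the highest peak over the 4 wild-type lists, among 386 protein-coding genes with a peak in all of them. The nearest was Fyn, a kinase gene, at 0.454 percentile points. Lzic and Nmnat1, which share a peak, were both at 0.666, Cdkn1a, the cell cycle inhibitor p21, at 1.51 and Rad51l1, a recombination gene, at 1.69. The Fyn peak ranked 31 and 47 in the mock lists of B and non-B cells, and 1 and 24 after irradiation. Near the top of the long IR lists percentiles differ by little, so genes at a small distance can differ in rank. After irradiation Cdkn1a ranked 7 in B and 1 in non-B cells, while Aen ranked 74 and 73. These distances rest on 4 libraries and carry no test.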

How the data were processed

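Peak lists of 5 p53 ChIP-seq libraries, 1 per group as given by the labels, were analysed, and the input library was not used here. Per the study's methods, low-quality bases were masked, reads were aligned to mm9 with BWA (0.6.2 in the submitters' processing notes) and MACS called peaks in each library. The values deposited by the authors were taken as −log10 p-values. That unit was inferred and stays uncertain: with a background mean fitted to each list, 33.6% and 35.1% of the IR values below 40 (B, then non-B) and 25.2% and 27.8% of the mock values matched, to 2 decimals, the −log10 Poisson probability of a whole number of reads. The share that would match by chance was not measured. Values began at 5.01 to 5.85, below the limit stated in the methods, and the narrowest peak had 53 to 55 bp in the mock and Trp53-/- lists but 174 and 175 bp in the wild-type IR lists, so the calling may have differed. The lists give no read totals, so depth is unknown and a peak that was not listed may have been missed.

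From these, overlaps, ranks, percentiles and elements were computed. Coordinates count from 1, and every peak lay within its NCBIM37 chromosome. Features were read at peak midpoints. All 8 members and 37 pathway genes were matched, Pidd1 and Septin4 by older symbols. The members, gene lists and alternatives were chosen with earlier results of these data known. All members are named, with genes sharing their windows, the 5 pathway genes ranked highest in each IR list and the 5 genes most like Aen, and the remaining pathway genes in the text were picked after their values were seen. Single values of some genes of the pathway list are not reported here. The alternatives changed the window, overlap, minimum value, merging, ranking, promoter and element rules. Window overlap, ranking, the element scan, peak overlap and merging were tested on simulated data, and the other steps were not. The software was Python 3.11.15 with numpy 2.4.6, pysam 0.24.0, matplotlib 3.10.9, and samtools 1.23.1.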

Additional observations from a re-analysis of the deposited data

How the results depend on the processing

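Over 17 alternative settings 138 values were recomputed. Most are counts of up to 8 genes, which have no direction to change, and those of the Trp53-/- list were 0 throughout, so stability there says little. Of the counts, 11 moved by over 1.5 times. The median percentile of the highest peaks by value ran from 81.4 to 84.3 in irradiated B cells and from 85.0 to 92.8 in irradiated non-B cells. Ranking by width, with the widest peak per gene, gave medians of 78.4 and 88.4. Without the 10 kb extension, peaks at the 8 genes numbered 9 in irradiated B cells and 10 in irradiated non-B cells, and with 50 kb they numbered 28 and 27, as a narrower or wider window gives by construction. A minimum value of 20 left 9 and 6 peaks, and 3 genes with an IR peak and no mock peak in B cells. A promoter of 1 kb on either side of a start left 1 gene with a mock peak for B cells, and 1 for the non-B list. A spacer of 0 to 15 bases in the element gave 5 genes with a match in irradiated B cells and 6 in irradiated non-B cells. Such matches were present in 46.0% and 45.2% of all peaks in these lists and in 35.6% of moved windows for both. Those are shares of single peaks or windows, and the share of all genes was not computed. Removing peaks that overlap a Trp53-/- peak could change none of the recomputed counts, since no peak at the 8 genes overlapped one of that list. No paired analysis was possible because the labels give 1 library for each group, and leaving out a library would leave none. The unknown depth limits every statement that a peak was not listed.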
